A study of Mus musculus with 26 samples.

Results

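The comparison set dysf, a mouse line labelled as dysferlin-deficient, against sjl, the second such line of the series. Each line had 2 RNA samples, so the comparison used 4 of the 26 RNA samples, and all 6540 named genes on the arrays were examined. The 26 samples of 13 groups were hybridised in pairs on 26 arrays with 2 channels each, every sample on 2 arrays, so that the arrays formed a closed loop. Wild type mice were of bl6 and bl10. mdx and mdx3cv lack dystrophin, sgca, sgcb, sgcb2, sgcd and 1 further line, not reported here, each lack a sarcoglycan, sspn lacks sarcospan, and hDMD has the human DMD gene. What each group lacks was read from its short name alone. The labels give total RNA of Mus musculus, and the tissue, age, sex, allele and background strain of the dysf and sjl mice are not given in the sources used here.

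Dysferlin is a calcium-binding protein of the muscle fibre membrane that takes part in closing membrane wounds, together with annexins, calpains and caveolin. Loss of dysferlin causes limb-girdle muscular dystrophy in humans. SJL is an inbred mouse strain with a spontaneous mutation in the dysferlin gene. A difference between dysf and sjl can therefore hold the difference between 2 alleles and the difference between 2 genetic backgrounds, and these cannot be told apart here. The arrays hold ratios and no absolute signal, so the presence of muscle or of any other tissue could not be checked from its markers.

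dysf and sjl were never on the same array (0 arrays held both). The 4 arrays with a dysf sample and the 4 with a sjl sample were joined through the other groups in 1 fit of all 26 arrays. Levels and differences are on the log2 scale, where 1 stands for a 2-fold difference. A sample value is the mean over the 2 arrays of that sample, set against the mean of the 13 groups through the fitted levels of its partners. It therefore also holds part of the deviation of the partner samples from their groups. The direction of the ratio, channel 1 over channel 2, was taken as likely. Under it, 7 of 7 pairs of another reported line and the gene that line lacks were lower than wild type, with an unadjusted p under 0.05 for 3. The 2 pairs left out of this count, Dysf in dysf and Dysf in sjl, went the other way. They lay 0.55 and 0.76 above wild type, with an unadjusted limma p of 0.387 and 0.144. With the channels the other way round, every sign below would turn.

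The dysferlin gene itself, Dysf, was measured first. Its sample values were -0.31 and 0.01 in dysf and 1.09 and -0.98 in sjl. The 2 sjl samples lay on either side of both dysf samples, so the lines overlapped. The difference of dysf minus sjl was -0.22 ± 0.64 (SE, n = 2 samples per line) with an adjusted p of 0.929. Against the mean of bl6 and bl10, Dysf was 0.55 ± 0.62 (adjusted p = 0.82) in dysf and 0.76 ± 0.50 (adjusted p = 0.729) in sjl. A lower Dysf transcript level was thus not detected in either line. Which part of the gene the spots cover and which part is mutated are not given, so this measurement does not check the labels. The sign of the Dysf difference also depended on single samples: it was 0.94 without sjl sample 1, 0.04 without sgca sample 2, and 0.51 and 0.46 without sample 1 and sample 2 of the unreported line.

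Of 6540 genes, 10 passed the threshold of an adjusted p under 0.05, which is 0.153% of those tested. Of these, 8 (0.122%) were higher in dysf and 2 (0.0306%) were higher in sjl. The 8 included S100a8, Ngp and Camp, which encode proteins of neutrophil granulocytes, and Ibsp, which encodes a sialoprotein of bone matrix. The others higher in dysf were Pttg1, Mgmt, Col7a1 and Rab6a, and the pair higher in sjl was Tfb2m and Zfp458. An unadjusted p under 0.05 was reached by 667 genes, 363 higher and 304 lower in dysf, or 10.2%. The median difference of all genes was 0.06, with 53.7% of genes above 0. The sample values of the lines did not overlap for 49.9% of all genes, so that a lack of overlap was common in this comparison.

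**Figure D1:**
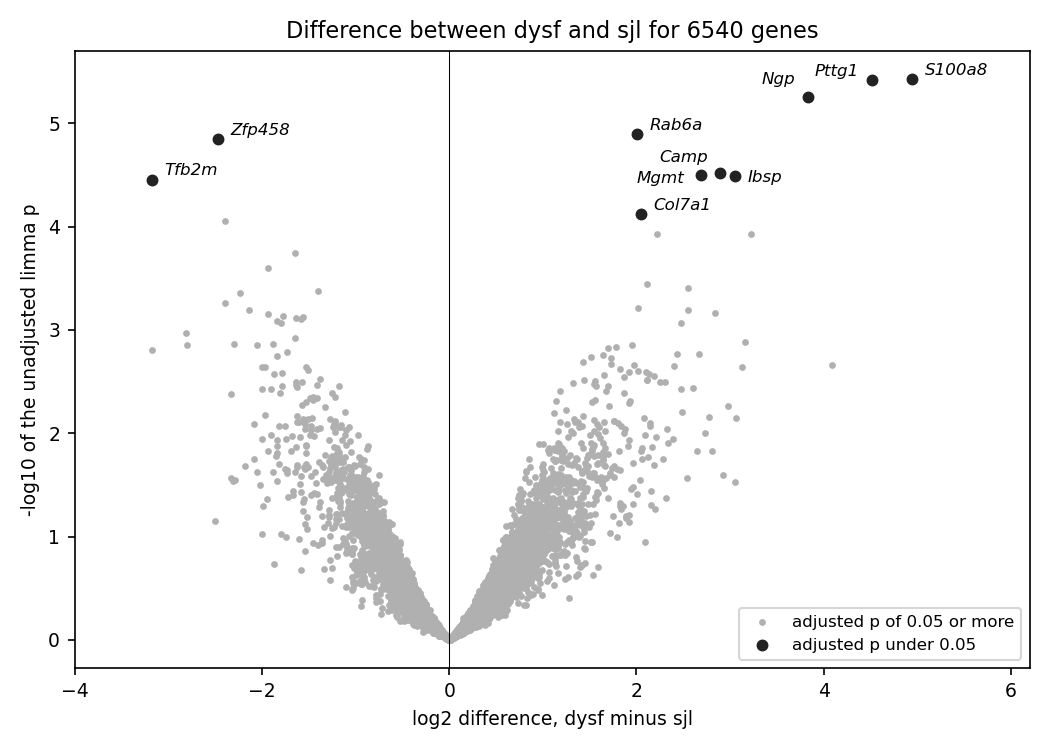
Each point is 1 of 6540 genes, with the log2 difference of dysf minus sjl on the x axis and -log10 of the unadjusted limma p on the y axis. The 10 genes with an adjusted p under 0.05 are drawn in black and named: 8 lie on the right, higher in dysf, and Tfb2m and Zfp458 lie on the left.

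The number of called genes rested on single samples of many groups. Leaving out 1 RNA sample removes 2 of the 26 arrays and opens the loop. In 15 of the 26 such fits the count fell by more than 1.5 times. It was 0 without dysf sample 2 (247 genes at an unadjusted p under 0.05), 0 without hDMD sample 2 (560), 0 without sgcb2 sample 2 (511) and 0 without sample 1 of the unreported line (436), by limma in each case. It was 1 without sjl sample 2, without sspn sample 1 or without sample 2 of the unreported line, and 2 without sjl sample 1 or sgcb2 sample 1. It was 3 without bl10 sample 2, hDMD sample 1, mdx3cv sample 1, mdx3cv sample 2, sgcd sample 1 or sspn sample 2. Without sgcb sample 1 it rose to 32. All 10 called genes kept their sign in every one of these fits. They were picked from the same arrays, so a kept sign is no independent evidence. Where a dysf or sjl sample was left out, the remaining sample was assumed to vary like those of the other groups.

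The start regions of the 3 granulocyte genes and of Ibsp are shown because these genes share a pattern, high in dysf and near wild type in sjl. The sequences are the 250 bases before the annotated gene start, from RefSeq on GRCm38.p6, 5′ to 3′ on the strand of the gene. Capitals mark matches, on either strand, to TTGCNNAA, a core letter pattern of C/EBP factors, which act in granulocyte maturation, and to TATAAA, the TATA box. TGTGGT, a core pattern of RUNX factors, was searched too and matched in none of the 4.

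S100a8, chr3:90668821-90669070, plus strand: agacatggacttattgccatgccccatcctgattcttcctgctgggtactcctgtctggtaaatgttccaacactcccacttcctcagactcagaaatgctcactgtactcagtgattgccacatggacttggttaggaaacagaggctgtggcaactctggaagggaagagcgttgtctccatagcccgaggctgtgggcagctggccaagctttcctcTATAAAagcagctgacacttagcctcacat

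Ngp, chr9:110419558-110419807, plus strand: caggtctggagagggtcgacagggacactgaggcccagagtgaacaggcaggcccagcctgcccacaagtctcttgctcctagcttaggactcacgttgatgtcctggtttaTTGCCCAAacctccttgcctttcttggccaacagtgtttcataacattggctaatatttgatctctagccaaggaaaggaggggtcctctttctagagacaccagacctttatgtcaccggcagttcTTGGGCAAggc

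Camp, chr9:109849457-109849706, minus strand: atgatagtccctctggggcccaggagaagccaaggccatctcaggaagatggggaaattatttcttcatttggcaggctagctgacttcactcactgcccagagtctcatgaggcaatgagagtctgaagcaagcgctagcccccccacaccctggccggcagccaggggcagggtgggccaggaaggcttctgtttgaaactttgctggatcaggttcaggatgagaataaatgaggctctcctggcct

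Ibsp, chr5:104299037-104299286, plus strand: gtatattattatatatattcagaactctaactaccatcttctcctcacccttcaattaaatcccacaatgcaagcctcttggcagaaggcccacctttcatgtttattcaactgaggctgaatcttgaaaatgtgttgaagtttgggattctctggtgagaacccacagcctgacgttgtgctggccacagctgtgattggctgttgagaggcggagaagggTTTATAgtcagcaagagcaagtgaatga

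The S100a8 window held 1 TATAAA match close to the gene start. The Ngp window held 2 matches to TTGCNNAA, and the Ibsp window held 1 TATAAA match on the reverse strand. The Camp window held no match to the 3 patterns. Among 6698 windows of the same length, of 5168 genes on the arrays, 8.93% held TTGCNNAA, 10.2% held TATAAA and 11.4% held TGTGGT. These matches describe the letters of the windows and are not binding sites.

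S100a8 encodes a subunit of calprotectin, the calcium-binding protein that fills the cytosol of neutrophils. Its sample values were 3.93 and 3.00 in dysf and -1.65 and -1.36 in sjl. Both dysf samples lay far above both sjl samples, and the gap was larger than the spread within either line. The difference was 4.94 ± 0.79 (SE, n = 2), or 30.8-fold, with an adjusted p of 0.0121. The 2 spot rows of the gene gave 3.42 and 6.49, so the size of the difference was uncertain although its direction was shared. It was called in 18 of the 26 fits that left out 1 sample, with values over these fits between 3.81 and 5.50.

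Ngp encodes the neutrophilic granule protein. Its sample values were 2.22 and 2.83 in dysf and -1.40 and -1.50 in sjl, again without overlap. The difference was 3.83 ± 0.63 (SE, n = 2; adjusted p = 0.0121), or 14.2-fold. Its 2 rows lay close together at 3.79 and 3.93. Ngp was called in 17 of the 26 fits that left out 1 sample. Camp encodes cathelicidin, an antimicrobial peptide of neutrophil granules, and its values were 1.68 and 2.91 in dysf against -0.20 and -0.90 in sjl. The difference for Camp was 2.89 ± 0.54 (adjusted p = 0.0255), or 7.43-fold, and it was called in 9 of these 26 fits. In the RefSeq gene order of GRCm38.p6, Ngp and Camp lie 9 protein-coding genes apart, and Camp and Col7a1 lie 27 apart.

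S100a9 encodes the partner subunit of S100a8 and is the next protein-coding gene to it. It had nearly equal values of 2.66 and 2.64 in the dysf samples and -0.58 and -0.43 in the sjl samples. Its difference of 3.22 ± 0.68 just missed the threshold, with an adjusted p of 0.0598. Against wild type, S100a9 had a difference of 2.14 ± 0.53 in sjl, which did not pass (adjusted p = 0.111), beside 5.37 ± 0.65 (adjusted p = 0.000425) in dysf. Whether the 2 subunits differed between themselves was not tested.

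The whole list of neutrophil genes was mixed. Of its 20 measured members, 3 passed the threshold, all higher in dysf, against 0.122% of all genes called in that direction. With an unadjusted p under 0.05 there were 5 higher and 2 lower members, and 15 of 20 lay above 0. The median member was 0.57 above sjl, against 0.06 over all genes. Ltf, which encodes the iron-binding granule protein lactotransferrin, had a difference of 1.65 ± 0.56 (adjusted p = 0.359). Hal, a histidine-degrading enzyme that was on the list, had the opposite difference of -2.80 ± 0.76 (adjusted p = 0.231), and Stfa1, a stefin, had -0.72 ± 0.34 (adjusted p = 0.48). The list mean was 0.70 and 0.70 in the 2 dysf samples and -0.18 and -0.16 in the 2 sjl samples. None of its members was called without dysf sample 2, hDMD sample 2, sgcb2 sample 2, sspn sample 1, either sjl sample or either sample of the unreported line. More granulocytes and more granulocyte RNA per cell cannot be told apart in such RNA, and the source of these transcripts, blood, marrow or infiltrate, was not tested.

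Erythroid genes served as markers of blood and marrow. Of 11 measured, 0 passed the threshold by limma, with 4 higher and 0 lower at an unadjusted p under 0.05 and a median of 0.56. Hba-a1, an alpha-globin gene, was 1.38 and 1.68 in dysf and 0.05 and 0.11 in sjl, a difference of 1.43 ± 0.66 (adjusted p = 0.466). Alas2, the first enzyme of haem synthesis in red cell precursors, had a difference of 1.48 ± 0.71 (adjusted p = 0.484). The erythroid list mean was 0.46 and 0.30 in dysf and -0.33 and 0.07 in sjl, so it moved in the same direction as the granulocyte genes. Its part in their difference was not tested.

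Ibsp encodes bone sialoprotein, a matrix protein of mineralised tissue. Its sample values were 1.70 and 2.56 in dysf and -1.26 and -0.44 in sjl. Both dysf samples stood above both sjl samples. The difference was 3.05 ± 0.58 (SE, n = 2; adjusted p = 0.0255), or 8.31-fold, and Ibsp was called in 10 of the 26 fits that left out 1 sample. Among the 19 measured genes of tendon, bone and cartilage it was the only one to pass. At an unadjusted p under 0.05 there were 5 higher and 1 lower, and the list median was 0.61. Fmod, the collagen-binding proteoglycan fibromodulin of tendon, had values of 1.58 and 2.00 in dysf and -0.39 and -1.42 in sjl, a difference of 2.55 ± 0.60 (adjusted p = 0.15). Chad, the cartilage protein chondroadherin, had a difference of 1.92 ± 0.56 (adjusted p = 0.262), and Tnmd, the tendon membrane protein tenomodulin, had 1.28 ± 0.54 (adjusted p = 0.432). Sox9, a transcription factor of cartilage, had -1.01 ± 0.40 (adjusted p = 0.43). The list means were 0.37 and 0.65 in dysf and -0.01 and -0.33 in sjl.

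**Figure D2:**
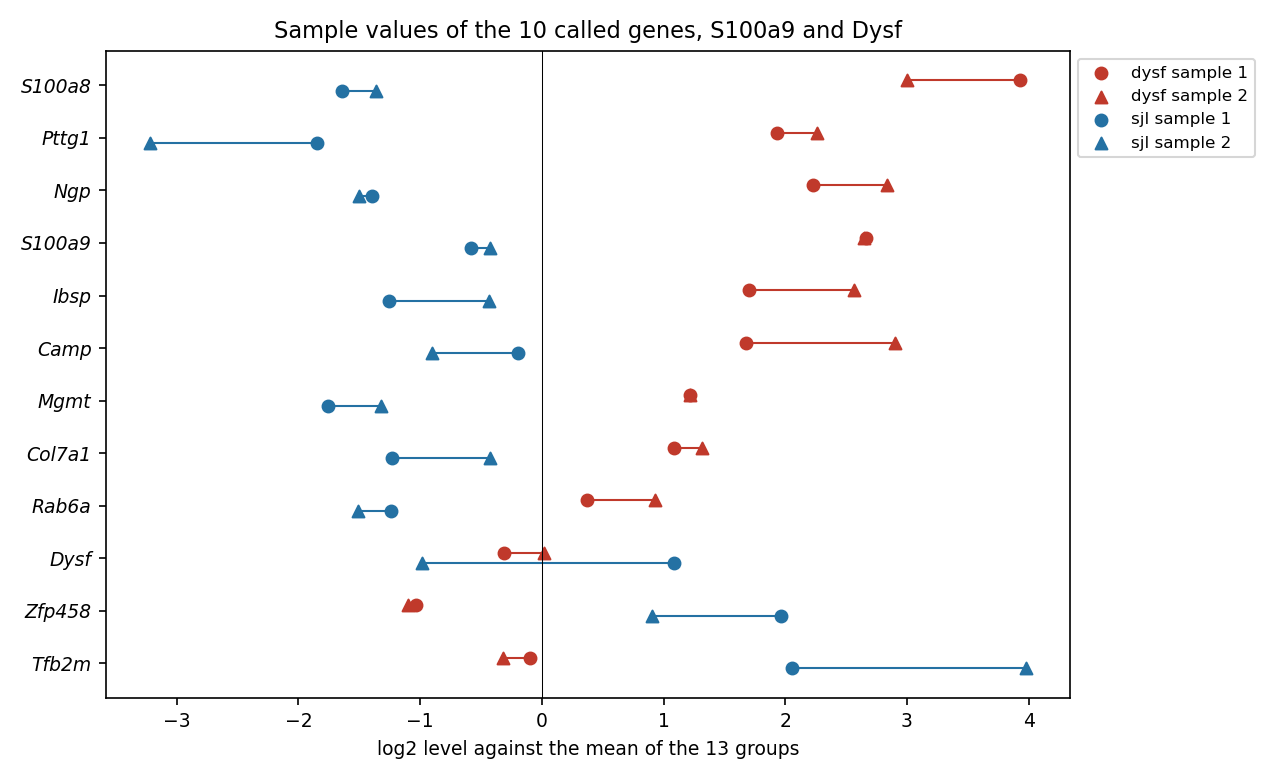
Sample values of the 10 called genes, S100a9 and Dysf, as log2 levels against the mean of the 13 groups on the x axis; red symbols are the 2 dysf samples, blue symbols the 2 sjl samples, and a line joins the samples of a line. For every gene shown except Dysf the lines are apart, and for Dysf the sjl samples at 1.09 and -0.98 enclose both dysf samples.

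Pttg1 encodes securin, which holds back the separation of sister chromatids until anaphase. Its values were 1.93 and 2.26 in dysf and -1.85 and -3.22 in sjl. The difference of 4.51 ± 0.72 (SE, n = 2; adjusted p = 0.0121), or 22.8-fold, was the most often called, in 19 of the 26 fits that left out 1 sample. The wild type strains differed for the same gene. The difference of bl10 minus bl6 was -4.37 ± 0.62 (adjusted p = 0.00478), which made Pttg1 the 1 gene called between the wild type strains, 0.0153% of all genes. The dysf level of 2.05 lay near that of bl6 at 2.64, and the sjl level of -2.46 lay near that of bl10 at -1.73. Of the 52 measured genes of the cell cycle list Pttg1 was the only one called, with 2 higher and 1 lower at an unadjusted p under 0.05 and a list median of -0.08. Ccnd2, a G1-phase cyclin, had a difference of 2.43 ± 0.67 (adjusted p = 0.241), and Pola1, the catalytic subunit of DNA polymerase alpha, had -3.17 ± 0.87 (adjusted p = 0.237).

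Tfb2m encodes a mitochondrial transcription factor that helps to open promoters of the mitochondrial genome. Its values were -0.09 and -0.32 in dysf and 2.06 and 3.98 in sjl. Both sjl samples were high, and they stood well apart from each other. The difference was -3.17 ± 0.60 (SE, n = 2; adjusted p = 0.0255), or 9.02-fold higher in sjl. Against wild type, Tfb2m was 3.48 ± 0.47 higher in sjl (adjusted p = 0.00111) and 0.31 ± 0.58 in dysf (adjusted p = 0.896). Its fitted level was 3.01 in sjl and lay between -0.65 and 0.28 in the other 11 reported groups. Tfb2m was called in 9 of the 26 fits that left out 1 sample. The lines could also be set against each other through a partner line that had 1 RNA sample on an array with dysf and its other RNA sample on an array with sjl. No RNA sample is shared by such arrays, so each value also holds the difference between the 2 samples of the partner line. For Tfb2m it was -1.05 through the unreported line (dysf sample 1 and sjl sample 1) and -5.30 through hDMD (dysf sample 2 and sjl sample 2).

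Rab6a encodes a small GTPase of transport through the Golgi apparatus. Its values were 0.37 and 0.93 in dysf and -1.24 and -1.51 in sjl. The difference was 2.00 ± 0.35 (SE, n = 2; adjusted p = 0.0187), or 4.00-fold, and the values through the unreported line and through hDMD, which include the difference between the 2 samples of each partner line, were 2.05 and 2.15. Rab6a was called in 11 of the 26 fits that left out 1 sample. The low level belonged to sjl: it was 1.57 ± 0.27 below wild type (adjusted p = 0.0197), where dysf was 0.43 ± 0.34 above it (adjusted p = 0.714). hDMD had a low Rab6a level too, at -2.03. Csnk1e, a casein kinase of the circadian clock, had no such contrast, with 1.23 and 1.36 in dysf and 1.78 and 1.83 in sjl. It was above wild type in both lines, by 2.43 ± 0.47 (adjusted p = 0.0435) in dysf and 2.94 ± 0.38 (adjusted p = 0.00111) in sjl. Pttg1, Tfb2m, Rab6a and Csnk1e had been listed together because earlier results of these data marked them, so their counts are no independent evidence.

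Mgmt encodes the enzyme that removes alkyl groups from guanine in DNA. Its values were 1.21 and 1.21 in dysf and -1.76 and -1.32 in sjl, a difference of 2.69 ± 0.51 (SE, n = 2; adjusted p = 0.0255). Its 2 rows gave 1.32 and 4.09, so that the 6.44-fold difference of their mean was uncertain in size. Zfp458, a gene of the zinc finger protein family, was -1.03 and -1.10 in dysf and 1.96 and 0.91 in sjl. Its difference was -2.47 ± 0.44 (adjusted p = 0.0187), or 5.56-fold higher in sjl. Of the 26 fits that left out 1 sample, Zfp458 was called in 12 and Mgmt in 9.

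Col7a1 encodes the collagen of anchoring fibrils, which fasten epithelial basement membranes. Its values were 1.09 and 1.32 in dysf and -1.23 and -0.43 in sjl. The difference of 2.05 ± 0.41 (adjusted p = 0.0494), or 4.13-fold, lay at the edge of the threshold. It was called in 5 of the 26 fits that left out 1 sample, the fewest of the 10 genes. Among 14 measured genes of skin and other epithelia, a list that does not hold Col7a1, 0 were called by limma and 0 had an unadjusted p under 0.05 in either direction.

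The genes with the next smallest p did not pass. Higher in dysf were Magix, with a difference of 2.22 ± 0.47 (adjusted p = 0.0598), and Nbl1, a secreted antagonist of bone morphogenetic proteins, with 2.12 ± 0.49 (adjusted p = 0.145). On the other side stood Timm8a1, a chaperone of import into mitochondria, at -1.56 and -1.44 in dysf and 1.00 and 1.01 in sjl. The Timm8a1 difference of -2.39 ± 0.49 had an adjusted p of 0.052. Tfap2c, a transcription factor of the AP-2 family, had -1.65 ± 0.36 (adjusted p = 0.0832), and Ppig, a cyclophilin, had -1.93 ± 0.44 (adjusted p = 0.109). Sp1, a general activator at GC-rich promoters, had -2.13 ± 0.53 (adjusted p = 0.175), and Ikzf1, the lymphoid transcription factor Ikaros, had -1.94 ± 0.48 (adjusted p = 0.175). Ces3a, Chtop, Fam32a, Corin and Plxna3 had differences between -2.40 and -1.40 with adjusted p between 0.151 and 0.175.

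**Figure D3:**
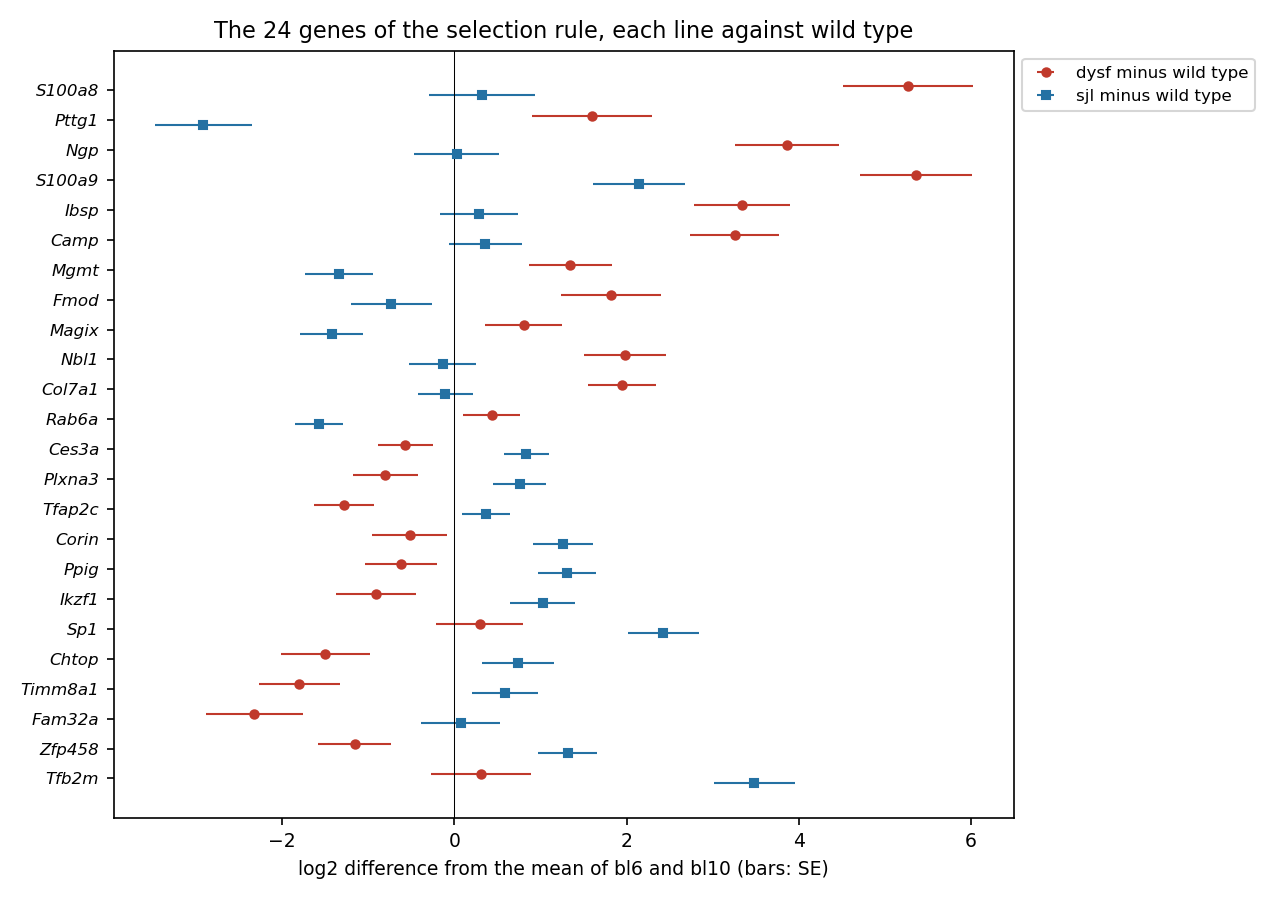
For the 24 genes of the selection rule, 12 in each direction, the log2 difference of each line from the mean of bl6 and bl10 is drawn with its SE, red circles for dysf and blue squares for sjl. S100a8, Ngp, Ibsp and Camp lie between 3.26 and 5.27 in dysf and between 0.03 and 0.36 in sjl, while Tfb2m lies at 3.48 in sjl and 0.31 in dysf.

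The levels of both lines were also set against wild type. The comparisons of dysf and of sjl with wild type share the 4 bl6 and bl10 samples. S100a8 was 5.27 ± 0.76 above wild type in dysf (adjusted p = 0.00279) and 0.32 ± 0.62 in sjl (adjusted p = 0.944). Ngp was 3.86 ± 0.61 in dysf (adjusted p = 0.00474) and 0.03 ± 0.49 in sjl (adjusted p = 0.996). Ibsp and Camp followed with 3.34 ± 0.55 (adjusted p = 0.00662) and 3.26 ± 0.52 (adjusted p = 0.00504) in dysf, beside 0.29 and 0.36 in sjl. In these 4 genes it was the dysf level that stood away from wild type. Pttg1, Rab6a and Tfb2m were called against wild type in sjl and not in dysf. For Pttg1 the mean of bl6 and bl10 lay between unlike levels, 2.64 in bl6 and -1.73 in bl10. The sjl level of -2.46 was near that of bl10, so the Pttg1 call does not set sjl apart from both strains. Mgmt, Zfp458 and Col7a1 were called against wild type in neither line, with values of 1.35, -1.16 and 1.95 in dysf and -1.34, 1.32 and -0.10 in sjl. In all, 7 genes (0.107%) were called between dysf and wild type and 16 (0.245%) between sjl and wild type.

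Across the 12 reported groups, the 4 genes high in dysf were high in some other lines too. S100a8 had a fitted level of 3.43 in dysf, 3.33 in sgcb, 2.15 in sgca and 1.52 in sspn, against -1.52 in sjl, -1.64 in bl6 and -2.04 in bl10. Ngp was 2.46 in dysf, 3.23 in sgcb, 1.98 in sspn and 1.94 in sgca. Camp was 2.33 in dysf, 2.07 in sgcb and 1.69 in sspn, and Ibsp was 2.18 in dysf, 2.41 in sspn and 1.66 in sgcb. By contrast sgcb2, whose name points to the same sarcoglycan as sgcb, was at -0.670 for S100a8, -0.825 for Ngp, -0.804 for Camp and -0.928 for Ibsp. The high level was thus shared by dysf and some, but not all, lines that lack other proteins, and sgcb and sgcb2 differed. For these 4 genes sjl was at the level of the wild type strains. The dysf samples shared arrays with sgcb, sspn and hDMD samples, the sjl samples with sgca, bl6 and hDMD samples, and both lines with samples of the unreported line.

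**Figure D4:**
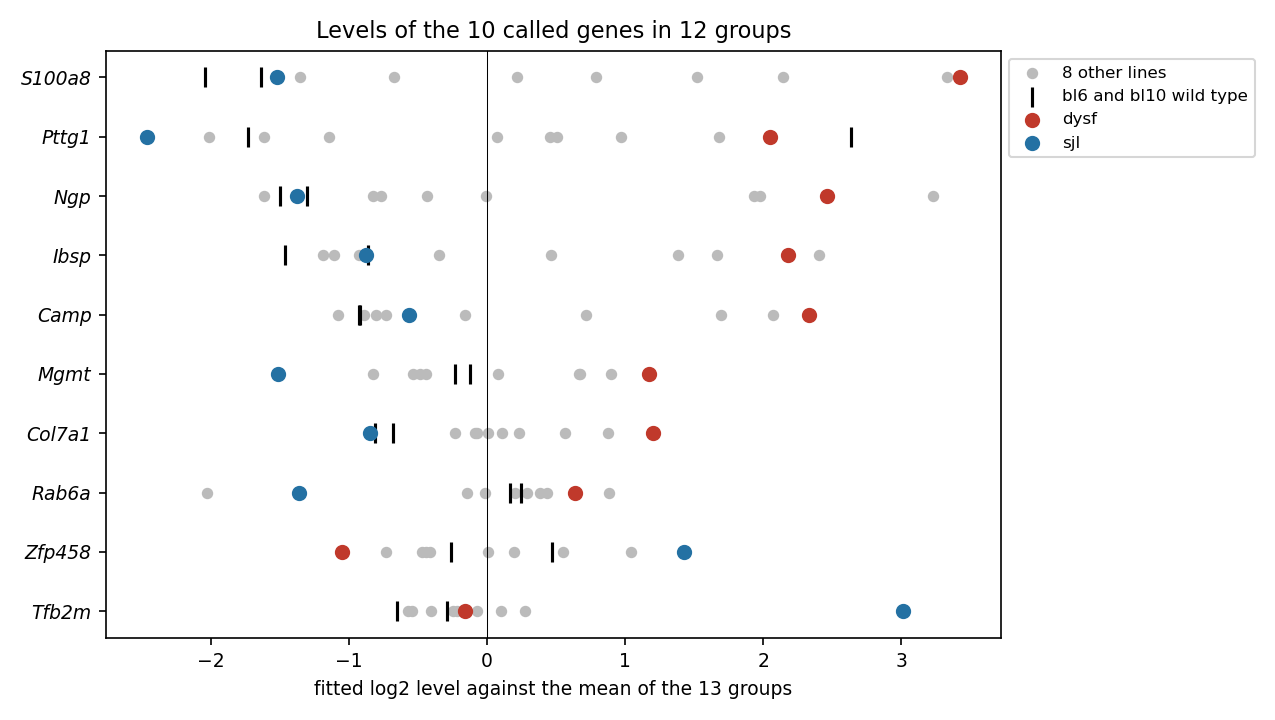
Fitted log2 levels of the 10 called genes against the mean of the 13 groups (x axis) in the 12 reported groups: dysf in red, sjl in blue, bl6 and bl10 as black ticks and the 8 other lines in grey. For S100a8, Ngp, Ibsp and Camp sjl sits beside the wild type strains, and for Tfb2m sjl sits alone at 3.01.

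The gene lists, 41 in all, hold genes known from muscle fibres, from other cell types and from general cell functions. Called members were found in the neutrophil, bone, cell cycle and strain-linked lists only, and in the remaining 37 lists 0 members passed by limma. These lists are given by their counts at an unadjusted p under 0.05, which 5.55% of all genes reached as higher in dysf and 4.65% as lower. They had been written with earlier results of these data known.

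Membrane repair genes, a list that also holds Dysf itself, counted 27 measured members with 8 higher and 1 lower in dysf and a median of 0.47. Of the 27 members, 16 lay above 0. Anxa6, an annexin that is drawn to membrane wounds, was 0.72 and 2.04 in dysf and -0.14 and -1.52 in sjl, a difference of 2.08 ± 0.69 (adjusted p = 0.359). Capn1 and Capns1, the large and the small subunit of a ubiquitous calpain, had differences of 1.88 ± 0.65 (adjusted p = 0.363) and 2.04 ± 0.86 (adjusted p = 0.432). Capn3, the muscle calpain, had 1.58 ± 0.61 (adjusted p = 0.42), and Cav3, the muscle caveolin, had 1.25 ± 0.52 (adjusted p = 0.432). Syt7, a synaptotagmin that acts in calcium-triggered exocytosis, had 1.20 ± 0.45 (adjusted p = 0.41). Anxa7 had 1.16 ± 0.43 (adjusted p = 0.412) and Anxa11 had 1.03 ± 0.47 (adjusted p = 0.45). Pdcd6, a calcium-binding partner of annexins, had the opposite sign with -1.11 ± 0.43 (adjusted p = 0.422). No gene of this list passed the threshold, and the list means were 0.07 and 0.55 in dysf and 0.20 and -0.62 in sjl, so that sjl sample 1 lay between the dysf samples.

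Genes of the dystrophin complex counted 16 measured members, of which 3 were higher and 0 lower in dysf, with a median of 0.62. Sgca, the alpha-sarcoglycan gene, was 1.09 and 2.28 in dysf and -0.93 and -1.05 in sjl. Its difference was 2.55 ± 0.63 (adjusted p = 0.175). Sspn, which encodes sarcospan, had 1.44 ± 0.43 (adjusted p = 0.264), and Utrn, the dystrophin relative utrophin, had 1.22 ± 0.53 (adjusted p = 0.432).

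The fast-fibre list had the highest median of all 41 lists, 1.15, with 6 higher and 0 lower of 16 measured members and 14 above 0. Actn3, the alpha-actinin of fast fibres, was 1.64 and 3.43 in dysf and -1.05 and -2.62 in sjl. The lines were apart, but the samples within each were also far from each other. The difference was 4.09 ± 1.17, with an adjusted p of 0.252. Myoz1, which binds calcineurin at the Z-disc, had 1.52 ± 0.42 (adjusted p = 0.242). Atp2a1, the calcium pump of fast fibres, had 1.82 ± 0.53 (adjusted p = 0.261), Tpm1, a tropomyosin, had 1.93 ± 0.61 (adjusted p = 0.301), and Tnnt3, the fast troponin T, had 1.06 ± 0.40 (adjusted p = 0.413). The list means were 0.46 and 0.77 in dysf and -0.58 and -0.70 in sjl, and the list medians against wild type were 0.58 in dysf and -0.48 in sjl. The wild type strains also differed on this list, with a median of -0.46 for bl10 minus bl6. The wild type mean thus lies between unlike levels. Slow-fibre genes, 13 measured, had 0 higher and 0 lower members and a median of 0.09.

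Sarcomere and Z-disc genes had a median of 0.76, with 2 higher and 0 lower of 18. Flnc, the muscle filamin, had a difference of 2.31 ± 0.69 (adjusted p = 0.264), and Ldb3, a Z-disc adaptor, had 1.96 ± 0.94 (adjusted p = 0.484). Among 24 genes of calcium handling 3 were higher and 0 lower, and Sypl2, a protein of the triad junction, had 1.69 ± 0.64 (adjusted p = 0.42). Among 39 genes of regenerating and immature muscle 3 were higher and 1 lower. Des, the intermediate filament desmin, was 1.18 and 3.00 in dysf and -0.44 and -1.97 in sjl (difference 3.06 ± 1.02, adjusted p = 0.359), and H19, an imprinted RNA of growing muscle, had 2.73 ± 0.96 (adjusted p = 0.372).

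**Figure D5:**
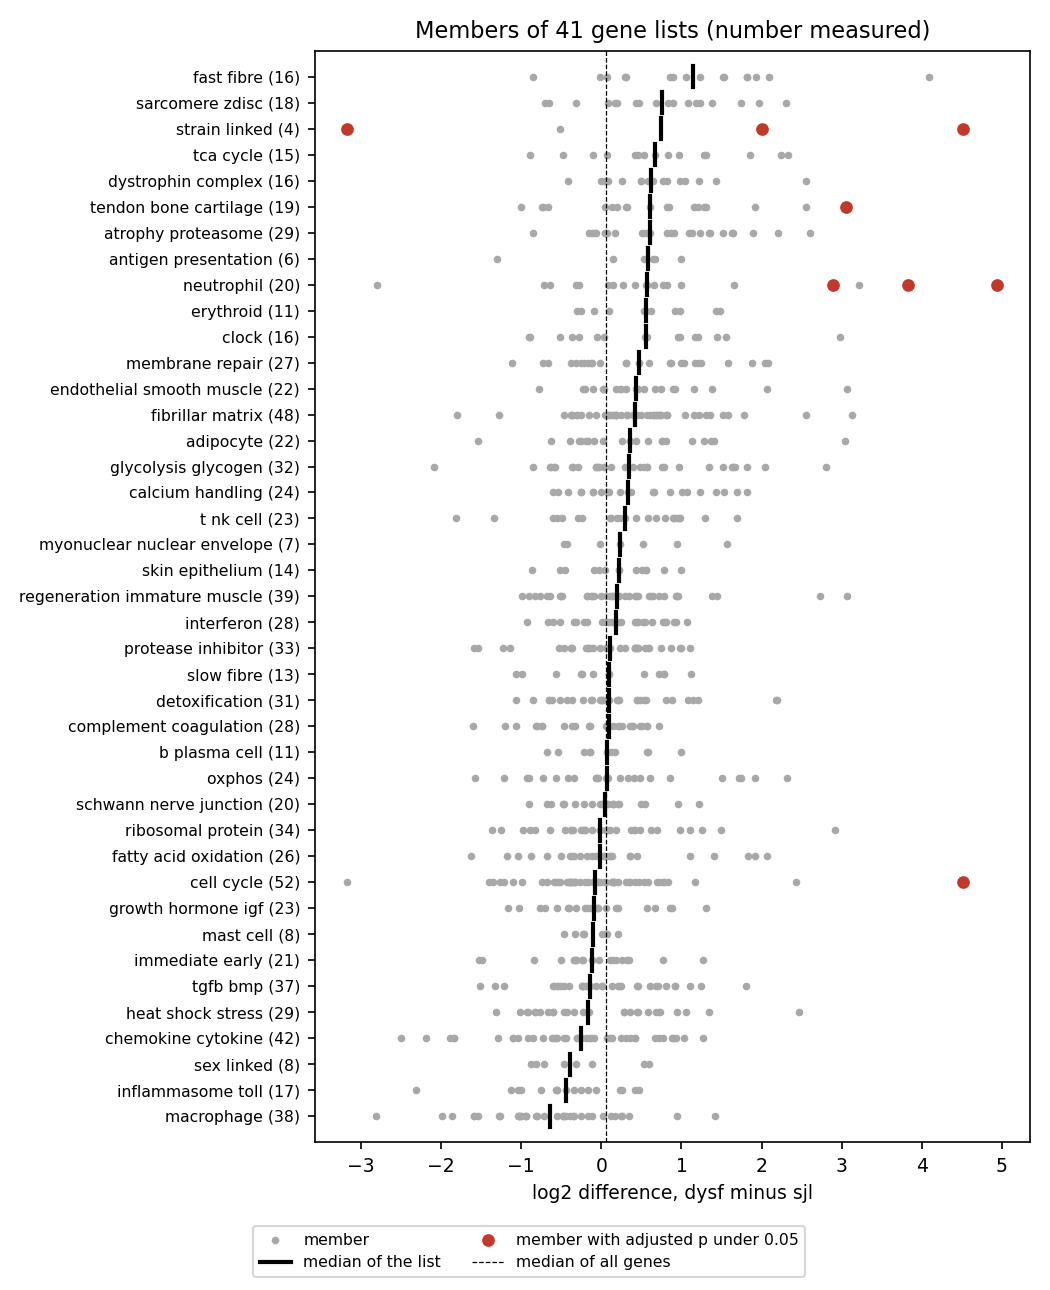
Log2 differences of dysf minus sjl (x axis) for the measured members of 41 gene lists, ordered by the list median (black bar), with called members in red and the median of all genes as a dashed line. The fast-fibre list is at the top with a median of 1.15 and the macrophage list at the bottom with -0.64.

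Genes of fuel use were spread to both sides. The citric acid cycle list had a median of 0.66 with 2 higher and 0 lower of 15. Pcx, pyruvate carboxylase, had a difference of 2.25 ± 0.67 (adjusted p = 0.264), and Suclg2, a subunit of succinyl-CoA ligase, had 2.33 ± 0.85 (adjusted p = 0.405). In glycolysis and glycogen use 5 of 32 were higher and 1 lower. Pgam2, the muscle phosphoglycerate mutase, had 2.80 ± 1.05 (adjusted p = 0.413), and Ldha, a lactate dehydrogenase subunit, had 2.05 ± 0.77 (adjusted p = 0.413). Pygl, the liver-type glycogen phosphorylase, was 0.24 and 0.46 in dysf and 1.54 and 3.55 in sjl (difference -2.09 ± 0.71, adjusted p = 0.359). Fatty acid oxidation had 3 higher and 2 lower of 26 and a median of -0.02. Pdk4, the kinase that switches off pyruvate dehydrogenase during fasting, had -1.63 ± 0.41 (adjusted p = 0.175), while Cpt1b, the muscle gate of mitochondrial fatty acid entry, had 1.83 ± 0.63 (adjusted p = 0.359). The oxidative phosphorylation list had 3 higher and 2 lower of 24, with a median of 0.07.

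Genes of protein breakdown counted 29 members, 5 higher and 0 lower, with a median of 0.60. The list means were 0.33 and 1.15 in dysf and 0.27 and -0.51 in sjl, so that dysf sample 1 and sjl sample 1 lay close together. Asb2, a ubiquitin ligase subunit of muscle, was 1.96 and 2.96 in dysf and -0.03 and -0.72 in sjl (difference 2.60 ± 0.79, adjusted p = 0.266). Sqstm1, an autophagy receptor, had 2.21 ± 0.79 (adjusted p = 0.381). Hspb8, a small heat shock protein, belonged to another list, that of heat shock and stress, and had 2.47 ± 0.76 (adjusted p = 0.266). That list had 2 higher and 2 lower of 29 measured members and a median of -0.16.

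Extracellular matrix genes counted 48 members, 8 higher and 1 lower, with a median of 0.42 and 37 above 0. The list means were 0.27 and 0.46 in dysf and 0.24 and -0.46 in sjl, so that only sjl sample 2 lay clearly apart. Col1a1, a chain of type I collagen, was 1.14 and 2.76 in dysf and 0.03 and -2.46 in sjl. The value of sjl sample 2 was far below the other 3, and the difference was 3.13 ± 0.90 (adjusted p = 0.252). Col4a2, a chain of basement membrane collagen, had 1.78 ± 0.48 (adjusted p = 0.232) and Col5a3 had 1.52 ± 0.48 (adjusted p = 0.301). P4ha1, which hydroxylates collagen prolines, had 1.58 ± 0.63 (adjusted p = 0.43), and Fn1, fibronectin, had 1.05 ± 0.45 (adjusted p = 0.432). Loxl2, a collagen cross-linking enzyme, was the lower member with -1.28 ± 0.43 (adjusted p = 0.359).

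Macrophage genes had the lowest list median, -0.64, with 0 higher and 2 lower of 38 measured and 8 above 0. Plek, the pleckstrin gene of blood cells, was -1.96 and -1.70 in dysf and 1.86 and 0.41 in sjl, a difference of -2.82 ± 0.74 (adjusted p = 0.214). Mrc1, the mannose receptor, was -0.58 and -0.60 in dysf and 1.22 and 1.16 in sjl, a difference of -1.60 ± 0.69 (adjusted p = 0.432). The list as a whole did not separate the lines: its means were -0.63 and -0.32 in dysf, 1.03 in sjl sample 1 and -0.51 in sjl sample 2. sjl sample 1 alone was high. Adgre1, a macrophage surface receptor, showed this too with 1.68 and -0.10 in sjl (difference -1.99 ± 0.96, adjusted p = 0.488).

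Chemokines and cytokines had 1 higher and 6 lower of 42 and a median of -0.26. The list means were -0.31 and -0.20 in dysf and 0.41 and -0.16 in sjl, so that sjl sample 1 alone was high. Cxcr4, also on the list, was -1.19 and 0.50 in dysf and 2.66 and 0.45 in sjl, and the lines overlapped. Ccl12, a monocyte attractant, was -0.61 and -1.40 in dysf and 1.80 and 0.74 in sjl (difference -2.18 ± 0.87, adjusted p = 0.43), and Ccl6 and Ccl4, further chemokines, had -1.89 ± 0.77 (adjusted p = 0.432) and -1.84 ± 0.66 (adjusted p = 0.392). Casp1, the inflammasome protease, was -1.11 and -1.84 in dysf and 1.36 and 0.68 in sjl (difference -2.31 ± 0.99, adjusted p = 0.432). The inflammasome and Toll-like receptor list held 0 higher and 1 lower of 17, with a median of -0.44. Its means were -0.37 and -0.37 in dysf and 0.555 and -0.173 in sjl, so that sjl sample 2 lay nearer to the dysf samples than to sjl sample 1. The lists of T and natural killer cells (3 higher, 1 lower of 23), B and plasma cells (0 and 0 of 11) and mast cells (0 and 0 of 8) had medians of 0.30, 0.07 and -0.10.

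The lists of other cell types and of signalling had medians on both sides of the median of all genes. Endothelial and smooth muscle genes had 3 higher and 0 lower of 22, a median of 0.43 and 18 members above 0. Smtn, a smooth muscle cytoskeletal protein, had a difference of 2.06 ± 0.77 (adjusted p = 0.41). Adipocyte genes had 2 higher and 1 lower of 22. Among them Car3, a carbonic anhydrase of fat and slow muscle, had 3.05 ± 1.30 (adjusted p = 0.432), and Scd1, which desaturates fatty acids, had -1.55 ± 0.62 (adjusted p = 0.43). Interferon-regulated genes had 0 higher and 0 lower of 28 and a median of 0.19. The transforming growth factor beta and bone morphogenetic protein list had 2 higher and 2 lower of 37. Acvr2b, a receptor of myostatin and activin, had 1.81 ± 0.68 (adjusted p = 0.413), and Bmp2, a ligand of the family, had -1.33 ± 0.51 (adjusted p = 0.42). Immediate early genes had 0 higher and 2 lower of 21, the transcription factors Myc with -1.53 ± 0.44 (adjusted p = 0.252) and Nr4a2 with -1.49 ± 0.47 (adjusted p = 0.294).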

How the data were processed

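The 2-colour arrays measured total RNA, and the authors deposited 1 value per spot, per the labels, with unit, centring and normalization not given in the sources used here. Recurring steps in the values fitted a generalized natural log (ln) on 22 of 22 arrays where a chain of at least 6 steps was found (tolerance 5%), log2 or log10 on 0; the other arrays were taken to share it. The deposited natural log ratios were divided by 0.6931, which gives log2 ratios, and such a scale understates changes of dim spots. Of 16416 rows, 13662 were paired with 1 gene, 14 with several and 2740 with none; 13602 matched RefSeq by Entrez identifier (0 symbols updated), and rows of a gene were averaged (6370 of 6540 genes had 2).

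limma 3.58.1 (R 4.3.3) was run on a generalized least squares fit with 12 group terms, a dye term and the RNA sample as random effect (variance ratio 0.207, REML), giving 13 residual and 7.38 prior degrees of freedom. Benjamini-Hochberg adjustment covered 6540 genes, with a threshold of 0.05. The median SE of dysf minus sjl was 0.48, and the number of arrays limits the precision. Nothing in the labels ties the 2 samples of a line to separate mice. P-values therefore rest on the spread between these particular samples, and that spread may be technical. Whether sample numbers pair the samples could not be decided. The deviations of dysf and sjl correlated at -0.37, but they also hold deviations of both samples of the unreported line and of hDMD. The comparison, the lists and their members were chosen with earlier results of these data known. Named genes are the 12 with the largest difference past the threshold in each direction, filled by smallest p, Dysf, and from each list the 4 members of smallest p; not all of the latter are printed. Further list members, among them Ltf, Hal, Capn3, Cav3, Tnnt3, Fn1 and Loxl2, and genes called only against wild type were named once their values had been seen. The code of the fit was also run on simulated data.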

Additional observations from a re-analysis of the deposited data

Results flagged for a closer look

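The difference between dysf and sjl is also the test of whether both lines differ from wild type by the same amount, and 10 genes met it at an adjusted p under 0.05. The values of dysf minus sjl were 4.94 for S100a8, 4.51 for Pttg1, 3.83 for Ngp, 3.05 for Ibsp, 2.89 for Camp, 2.69 for Mgmt, 2.05 for Col7a1, 2.00 for Rab6a, -2.47 for Zfp458 and -3.17 for Tfb2m. For S100a8, Ngp, Ibsp and Camp the dysf level was called against wild type and the sjl level was not. For Rab6a and Tfb2m it was the sjl level. Pttg1 was called against the wild type mean in sjl only, but bl6 and bl10 differed for it, with sjl near bl10 and dysf near bl6. With 2 samples in each line no sample could be marked as far from its group.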

How the results depend on the processing

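The 10 called genes kept their sign in 359 of 359 values under all alternatives. The 177 named genes that were not called kept it in 6337 of 6357 values, so a kept sign did not set the called genes apart. The number of calls did not hold. The 8 genes higher in dysf and the 2 lower became 15 and 7 with no random effect of the RNA sample, 1 and 1 with arrays centred and scaled alike, and 3 and 0 where every row of a gene had to pass alone. With the sample number of the labels as a replicate block they were 3 and 0, and with the sjl numbers crossed, an alternative chosen after seeing the data, also 3 and 0. Leaving out 1 of the 26 RNA samples gave between 0 and 23 higher and between 0 and 9 lower genes. With fewer samples the fit has fewer arrays, and for the other settings the cause was not tested. Neutrophil genes called, 3 of 20, fell to 0 with arrays centred and scaled alike and in 8 of the 26 fits that left out 1 sample, those without dysf sample 2 and without either sjl sample among them. Dysf lay between -1.39 and 0.94 when 1 sample was left out, and its sign turned without sgca sample 2 (0.04), sample 1 (0.51) and sample 2 (0.46) of the unreported line and sjl sample 1 (0.94). Set against each other through 1 partner line, whose 2 RNA samples differ between the arrays used and add their own difference, the lines gave -1.92 for Dysf by the unreported line and 1.06 by hDMD. The median of all genes lay between -0.03 and 0.12 under these alternatives. Over the 34 alternatives with a test, Pttg1 was called in 26, Ngp in 24, S100a8 in 23, Rab6a in 17, Zfp458 in 16, Ibsp in 14, Camp, Mgmt and Tfb2m in 13 each and Col7a1 in 7. The highest adjusted p over these alternatives was 0.323 for S100a8 and Pttg1 and 0.598 for Mgmt. No intensities were used, so signal over background is unknown.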

Other observations

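Some genes were called against wild type in 1 of the lines only, without a called difference between the lines. A call in 1 line alone does not show that the lines differ. Neu2, a cytosolic sialidase of muscle, was 3.26 ± 0.58 below wild type in sjl (adjusted p = 0.0199), with sample values of -0.05 and 0.35 in dysf and -2.22 and -3.22 in sjl, and its difference of dysf minus sjl was 2.67 ± 0.74 (adjusted p = 0.241). Ctse, the endosomal protease cathepsin E, was 3.32 ± 0.51 above wild type in dysf (adjusted p = 0.00438), with values of 2.28 and 2.51 in dysf and 0.42 and 0.64 in sjl. Its difference between the lines was 1.95 ± 0.53 (adjusted p = 0.231). Lamb1, a laminin chain, was 1.69 ± 0.33 above wild type in sjl (adjusted p = 0.0372), and dysf minus sjl was only -0.38 ± 0.43 (adjusted p = 0.782). The 2 lines thus lay close together for Lamb1, although only sjl was called. Sp1 was 2.43 ± 0.41 above wild type in sjl (adjusted p = 0.0195).

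The neighbours of Dysf on its chromosome were measured as well. The 40 nearest measured genes were taken, 20 on each side in the RefSeq order of GRCm38.p6. Of them 0 were called by limma and 3 had an unadjusted p under 0.05, beside 0.153% and 10.2% of all genes. The 3 neighbours were Tex261 with 0.94 ± 0.41, Zfp638 with -0.92 ± 0.41 and Mxd1, a partner of the Myc network, with -1.51 ± 0.44 (adjusted p = 0.441, 0.447 and 0.261).

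Clock genes had 4 higher and 1 lower of 16 at an unadjusted p under 0.05, with a median of 0.56. Per1 was -0.78 and 2.45 in dysf and -2.31 and -1.85 in sjl, so that the dysf samples were further from each other than dysf sample 1 was from either sjl sample. Its difference was 2.97 ± 0.96 (adjusted p = 0.317). Per3 was 0.42 and 0.42 in dysf and -1.56 and -0.59 in sjl. The time of day of sampling is not given in the sources used here.

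The 2 sample values lay furthest apart in sjl, with a median absolute difference of 0.47 over all genes. It was 0.34 in dysf and ranged from 0.27 to 0.47 over the 13 groups. Part of it can come from the partner samples, whose own deviations these values also hold. Rplp1, a ribosomal stalk protein, was 0.24 in sjl sample 1 and -4.08 in sjl sample 2, beside 0.88 and 1.26 in dysf. Of 8 sex-linked genes 0 were called by limma, with 0 higher and 1 lower at an unadjusted p under 0.05, and the Y-linked gene Eif2s3y was -0.35 and -0.28 in dysf and 0.69 and 0.55 in sjl.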
